A study of Danio rerio with 10 samples.

Results

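The transcripts described here were the most evenly represented in all 10 libraries, from cleavage to gastrulation and in both cell fractions, when counts were scaled by library total. Of the 16383 transcripts in the count table, 3024 had at least 10 CPM (a transcript's count divided by all counts of its library, times 1000000) in every library. For each of these the highest CPM over the 10 libraries was divided by the lowest. This ratio was at most 2.5 for 822 transcripts, and the 300 with the lowest ratios are the members. The rule therefore used every value in the table, so all values below describe the members and none was tested.

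Wild-type zebrafish embryos (Danio rerio, AB strain) were collected late in cleavage, at 64-cell, in the blastula, at 256-cell, 1000-cell and dome, and at shield, an early gastrula stage. Pools of embryos without their chorion were opened in a buffer that releases the cytosol, and the spun-down, washed pellet was kept as the nuclear fraction. Each of the 5 stages gave 1 nuclear and 1 cytosolic library, without replicates. Libraries of total RNA, with and without poly(A), were made after removal of ribosomal RNA. No treatment or mutation was involved, and all groups share the strain and the fractionation protocol. The sample labels name no batch, so whether the stages were handled together is not known. No gene names could be given to the transcript IDs, so purity of the fractions could not be checked with marker genes, and no transcript is given a function here.

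A zebrafish egg carries a store of messenger RNA made by the mother, and cleavage runs on that store while the embryo's own genome is almost silent. Transcription of the embryonic genome starts in earnest in the blastula, around the 1000-cell stage, and maternal RNAs are then removed at different speeds by several routes, including microRNAs and codon-dependent decay. RNAs that keep the same share of the pool through this change are of interest as reference RNAs and as products needed at every stage. Such an RNA can be a maternal copy that lasts, or a maternal copy replaced by a new embryonic one, and counts of this kind cannot tell these apart. A share of counts is also not an amount per embryo, since the total RNA in each fraction was not measured.

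The rule asked for at least 10 CPM in every library, so all 300 members were by choice detected before the main onset of embryonic transcription. Their lowest value in the 64-cell libraries was 11.7 CPM. The lowest count of any member in any library was 68, which carries a counting error of 12.1%. The median member had a lowest count of 1035. Library totals ran from 5909037 counts in the nuclear shield library to 14311969 in the cytosolic 64-cell library. The 300 members held 8.69% of the counts in the nuclear 256-cell library (95% Wilson interval 8.66 to 8.71%), the lowest share, and 10.1% in the cytosolic dome library (10.11 to 10.15%), the highest. Their mean share over the 10 libraries was 9.48% ± 0.442 (SD, n = 10 libraries). These intervals cover counting error only. At shield the members held 9.29% of the nuclear and 9.53% of the cytosolic counts, within the range of the earlier stages. The other 2724 transcripts with at least 10 CPM throughout held 68.1 to 81.7% of the nuclear and 75.2 to 80.6% of the cytosolic counts, with the lowest share at shield in both fractions. From the lowest to the highest library the summed share differed 1.17-fold for the members and 1.198-fold for these others.

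The ratio of highest to lowest CPM ran from 1.19 to 1.84 among the members, with a median of 1.62. It was at most 1.3 for 9 members and at most 1.5 for 71. Among the other 2724 transcripts the median ratio was 3.98 and the highest was 321. A ratio above 10 was reached by 401 of the 3024 transcripts (13.3%). The member last taken, ENSDART00000055767, had a ratio of 1.835, and the first left out, ENSDART00000103339, had a ratio of 1.837. At the limit of 2.5 itself, ENSDART00000109104 lay just inside at 2.496 and ENSDART00000122513 just outside at 2.5004. No gap in the values separates the members from the transcripts next to them.

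**Figure D1:**
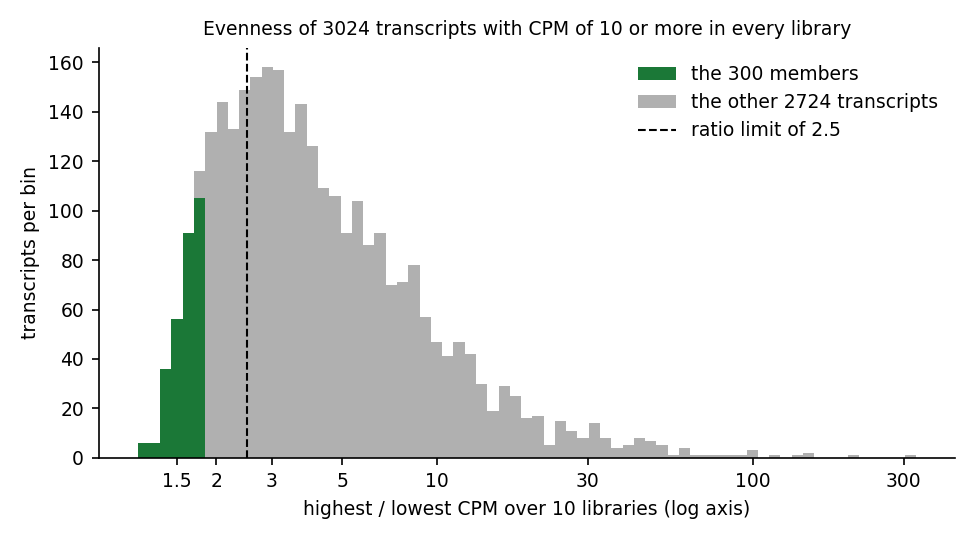
Number of transcripts (vertical axis) by the ratio of highest to lowest CPM over 10 libraries (horizontal log axis) for the 3024 transcripts with at least 10 CPM in every library, with the 300 members in green. The members are the left edge of a continuous distribution whose median is 3.64, and the dashed line at 2.5 marks the limit that 822 transcripts met.

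The members were spread over most levels of abundance. Their mean CPM ran from 16.0 to 2140.3 with a median of 202, against a median of 147 for the other 2724 transcripts. It was 1000 or more for 16 members, from 100 to under 1000 for 196 and under 100 for 88. When the 3024 transcripts were divided into 4 equal groups by mean CPM, members made up 7.80% of the lowest, 8.20% of the second, 10.7% of the third and 13.0% of the highest group. Counting error, which raises the ratio of scarce transcripts, falls along the same order, and its part in this gradient was not tested. The median SD of log2 CPM over the 10 libraries was 0.23 for the members, and the median counting error on that scale was 0.03. CPM was not divided by transcript length, which the files do not give, so levels of different transcripts are not compared as numbers of molecules.

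The 3 members with the lowest ratios stood at quite different levels. ENSDART00000122923, the most even, had 70.7, 63.2, 60.6, 68.6 and 61.3 CPM in the nuclear libraries and 63.5, 62.6, 60.2, 71.1 and 59.9 CPM in the cytosolic libraries, each in order of stage. Its 2 highest values came from dome cytosol and 64-cell nuclei and its lowest from shield cytosol, with a ratio of 1.186 and a mean of 64.2 ± 4.34 CPM (SD, n = 10 libraries). ENSDART00000060971 had 28.0, 28.4, 27.8, 28.0 and 25.2 CPM in the nuclear and 24.8, 26.4, 26.7, 24.4 and 29.0 CPM in the cytosolic libraries. The nuclear value was the higher one at all stages but shield, where the order of the fractions was the opposite. ENSDART00000007335 had 534, 544, 552, 465 and 485 CPM in the nuclear and 555, 493, 542, 504 and 479.6 CPM in the cytosolic libraries. Its 4 late values, from dome and shield, lay at 504 CPM or below, and only the 256-cell cytosolic library among the early ones was as low.

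The 3 members with the highest mean CPM kept their level within 1.55-fold. ENSDART00000058876 had 2101, 1876, 2000.1, 2054 and 2152 CPM in the nuclear and 2202, 2147, 2561, 1909.6 and 2399.95 CPM in the cytosolic libraries, a ratio of 1.37. Cytosol was higher at all stages but dome. ENSDART00000131837 had 1476, 1609, 2273, 1893 and 1707 CPM in the nuclear and 1611, 1466, 1769, 1767 and 1512 CPM in the cytosolic libraries, a ratio of 1.55. The nuclear 1000-cell library stood above its other 9 values. ENSDART00000140747 had 1717, 1488, 1751, 1770.4 and 1679 CPM in the nuclear and 1686, 1571, 1785, 1768 and 1659 CPM in the cytosolic libraries. It was the fourth most even member, with a ratio of 1.1998, and both of its 256-cell values lay below all others. Its SD over the 10 libraries was 5.67% of its mean of 1687 CPM, the smallest among the members, whose median was 15.6%.

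**Figure D2:**
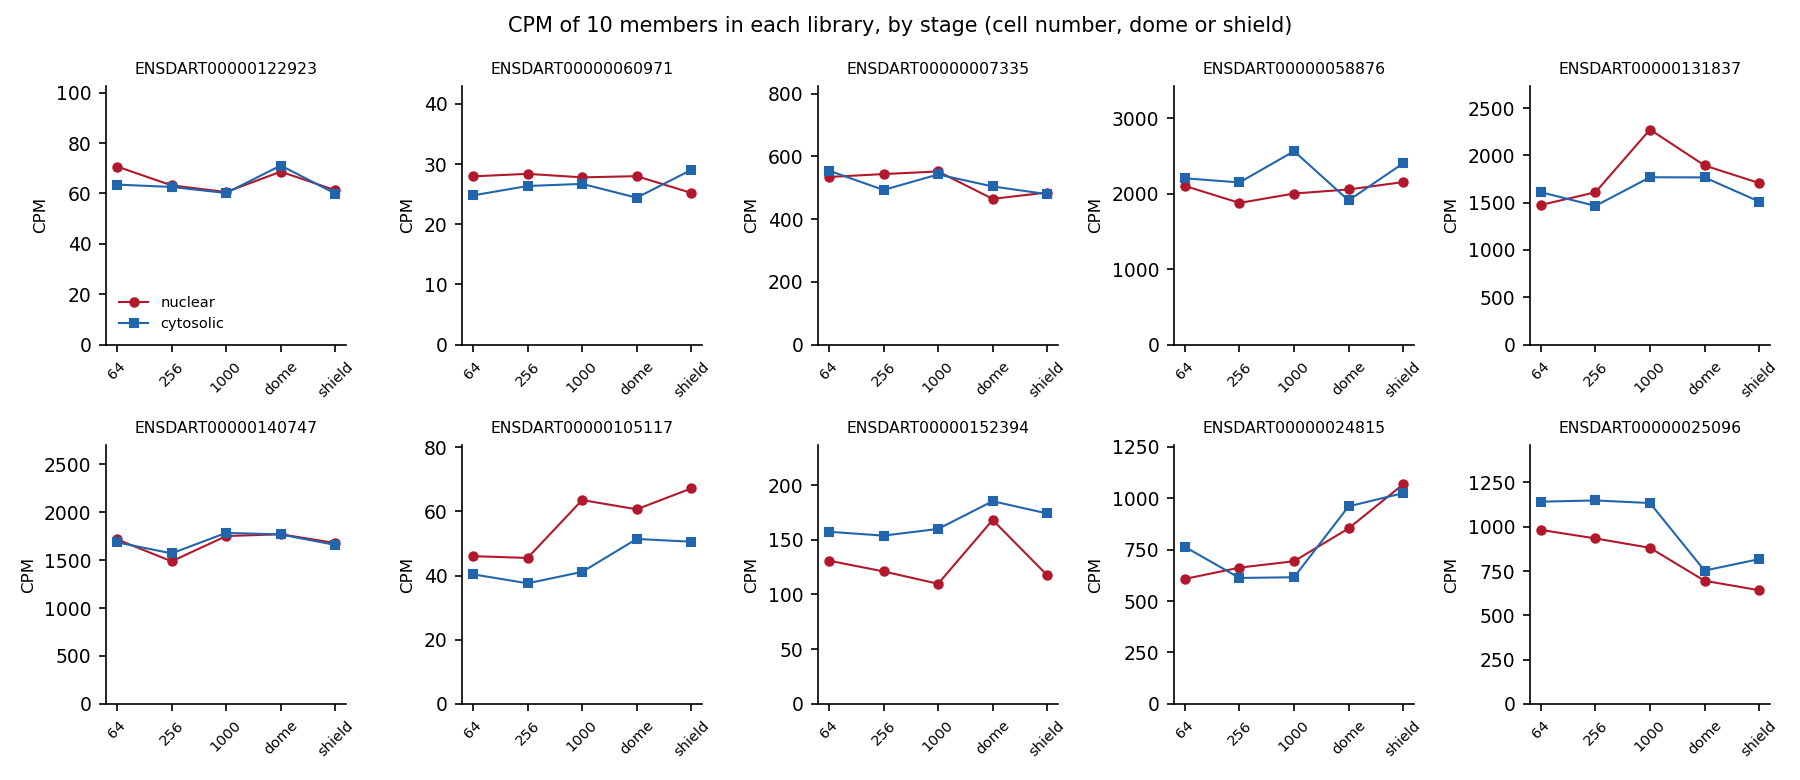
CPM (vertical axis, from 0) by stage for 10 members, with nuclear libraries as red circles and cytosolic libraries as blue squares, 1 library per point. The first 6 panels are the most even and the most abundant members, and the last 4 are those with the highest and lowest mean nuclear/cytosolic and late/early ratios.

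Evenness over the first 4 stages was common, and the shield libraries narrowed the list most. When shield was left out, 2947 of the 3821 transcripts with at least 10 CPM met both limits over the 8 remaining libraries. With shield it was 822 of 3024. Leaving out any other stage gave 874 to 918, out of 3044 to 3071. These counts apply the rule to the same values that chose the members. Shield gave 1 library per fraction, so the stage cannot be told apart from its libraries. Without the cytosolic shield library alone 1259 met the limits, and without the nuclear shield library 1201. Of the 2947 transcripts, 2125 (72.1%) no longer met the limits once shield was included. Among those 2125, 1167 (54.9%) were more than 2-fold below their mean of the 8 earlier libraries in both shield libraries, 212 in the nuclear one only and 323 in the cytosolic one only. In at least 1 shield library 318 (15.0%) were more than 2-fold above it, and 10 of these are also counted above as lower in the other library. Another 115 were within 2-fold in both. The members were thus not the most even transcripts of the first 4 stages. Ordered by the ratio over those 8 libraries, they ranked from 1 to 1925 among the 2947, with a median rank of 676.5, and 84 of them (28.0%) were among the first 300.

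To read evenness in libraries that had no part in the choice, 300 transcripts were chosen by the same rule without 1 stage and their CPM was then read at that stage. At 64-cell, 1 of 300 lay more than 2-fold from its mean of the 8 other libraries in either fraction (0.333%), against 14.2% of all transcripts with at least 10 CPM in those 8 libraries. At 256-cell the number was 4 (1.33%, against 16.8% of all), at 1000-cell 2 (0.667%, against 13.5%) and at dome 10 (3.33%, against 10.2%). Only the lists were chosen to be even over the 8 other libraries, which for these stages include both shield libraries. A change at shield shifts the mean that the other transcripts are compared with. The gap to all transcripts thus follows in part from the choice, under each scaling used here. The lists chosen without 64-cell, 256-cell, 1000-cell or dome shared 237 to 280 transcripts with the members, and the list chosen without shield shared 84. At shield the number past 2-fold was 173 of 300 (57.7%, against 72.8% of all), of which 162 were lower and 11 higher. The median log2 difference of that list at shield was -0.86 for nuclei and -0.72 for cytosol. Lists chosen anew after TMM scaling, which sets libraries by the bulk of shared transcripts, gave 164 of 300 past 2-fold at shield, 139 of them lower and 25 higher, against 71.8% of all transcripts with at least 10 CPM in the 8 other libraries. At the other stages it was at most 7, against 10.2 to 16.2% of all. With DESeq2 size factors, a similar scaling, the number at shield was 153, with 115 lower and 38 higher, against 70.5% of all, and at most 6 elsewhere, against 10.3 to 16.2%. The median at shield was then -0.85 for nuclei and -0.21 for cytosol with TMM factors, and -0.61 and -0.06 with DESeq2 size factors. That the shield libraries stood apart thus held under all 3 scalings, while the size of the fall did not. Its median ran from -0.86 to -0.61 for nuclei and from -0.72 to -0.06 for cytosol. The list chosen without shield was narrower than the members, with ratios up to 1.34.

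**Figure D3:**
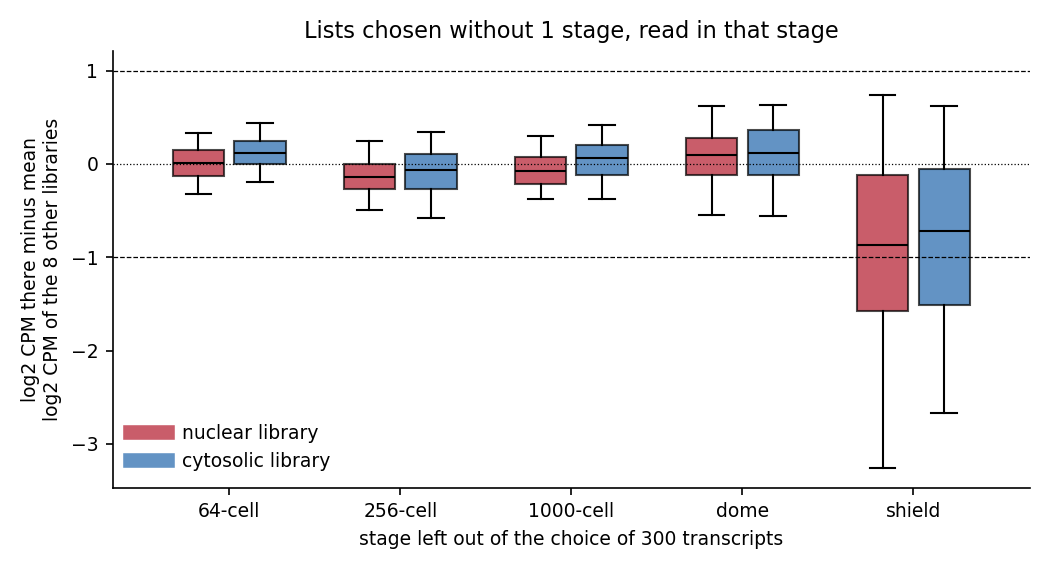
Log2 CPM at 1 stage minus the mean log2 CPM of the 8 other libraries (vertical axis) for 300 transcripts chosen without that stage (horizontal axis), nuclear in red and cytosolic in blue. Boxes span the quartiles with the median, whiskers the 5th to 95th percentile and dashed lines 2-fold, and only the shield boxes reach below the lower dashed line.

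Within their narrow range most of the spread of the members lay between stages. Of the summed squares of log2 CPM around each member's mean, 61.8% lay between stages, 10.4% between fractions and 27.8% in the remainder. Of the 9 degrees of freedom stage takes 4 (44.4%) and fraction 1 (11.1%), so without any structure stage would also hold the larger part. Stage held more than its 44.4%, while fraction was near its 11.1%. Without replicate pools of embryos, differences between pools or in handling cannot be told apart from stage. For the other 2724 transcripts the values were 82.9%, 4.26% and 12.8%. With TMM factors stage held 57.1% and fraction 11.5%, and with DESeq2 size factors 67.9% and 9.40%. The median step from stage to stage was small in both fractions by library total. From 64-cell to 256-cell the median log2 change of the members was -0.10 for nuclei and -0.10 for cytosol. From 256-cell to 1000-cell it was 0.03 and 0.06, from 1000-cell to dome 0.12 and 0.02, and from dome to shield -0.12 and -0.09. Over all 3024 transcripts the earlier steps were small too, at -0.10 and -0.10, then 0.04 and 0.09, then -0.002 and -0.07. Their last step was -0.45 for nuclei and -0.60 for cytosol. The cytosolic step to shield turned with the scaling, to a median of 0.44 for the members and -0.07 for all 3024 transcripts with TMM factors, and to 0.57 and 0.06 with DESeq2 size factors. For nuclei the step of the members was -0.07 with TMM factors and 0.16 with DESeq2 size factors, against -0.40 and -0.17 for all 3024 transcripts. With 1 library per fraction and stage these steps have no replicate check.

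By library total, shield was the stage of the highest and of the lowest library for more members than any other stage. The highest library belonged to shield for 96 members (32.0%) and to dome for 84 (28.0%), and to 1000-cell, 64-cell and 256-cell for 51, 44 and 25. The lowest library belonged to shield for 130 (43.3%), to 256-cell for 71 (23.7%), to 1000-cell for 48, to dome for 30 and to 64-cell for 21. Among the other 2724 transcripts shield was the highest stage for 31.3%, close to the share of the members, and dome for 15.8%, and shield was the lowest stage for 66.1%. Both extremes lay at shield, in opposite fractions, for 19 members (6.33%, against 5.21% of the other transcripts). A cytosolic library was the highest for 195 members (65.0%) and the lowest for 143 (47.7%), against 61.3% and 51.9% of the other transcripts. These counts rest on the scaling. With TMM factors the highest library belonged to shield for 218 members, 200 of them in the cytosol, and the lowest to shield for 71. With DESeq2 size factors the numbers were 257, 219 and 29. Under these scalings only the members were counted, so these numbers have no share of the other transcripts beside them.

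**Figure D4:**
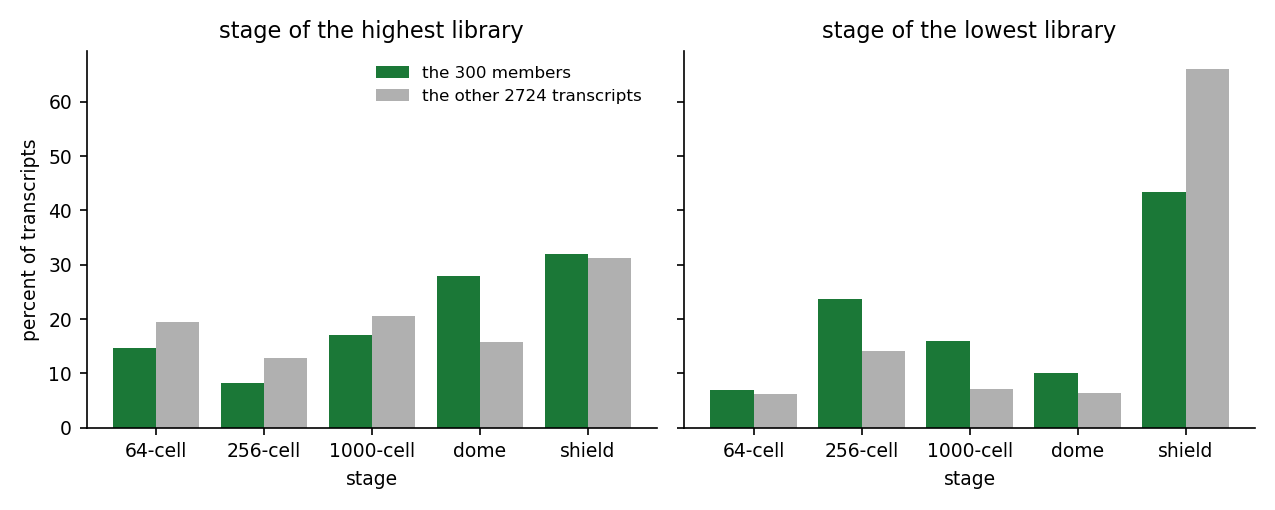
Percent of transcripts (vertical axis, from 0) whose highest library (left) or lowest library (right) belonged to each stage (horizontal axis), for the 300 members in green and the other 2724 transcripts in grey. By library total, shield was the lowest stage for 43.3% of the members and for 66.1% of the others. With TMM factors it was the lowest for 71 of the 300 members, and the others were not counted.

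Few members went in a single direction through development. The 4 late libraries (dome and shield) all lay above the 6 early ones for 10 members (3.33%), and all lay below for 12 (4.0%). Over all 3024 transcripts 9.95% lay above and 18.2% below. The rule limits how far a member can move, so the lower numbers follow in part from the choice. The split depended on the scaling of the libraries. With TMM factors 29 members (9.67%) lay above and 0 below, against 12.4% and 16.2% of all 3024 transcripts. With DESeq2 size factors the numbers were 31 (10.3%) and 0, against 12.4% and 16.4%. With 64-cell left out 22 lay above and 12 below, with 256-cell left out 14 and 20, and with 1000-cell left out 19 and 19, where 10.7 to 11.8% of all transcripts lay above and 19.1 to 22.0% below. With dome left out 33 members (11.0%) lay above and 51 (17.0%) below, against 18.1% and 46.9%. With shield left out the numbers were 51 (17.0%) and 32 (10.7%), against 19.2% and 22.8%. In the nuclear libraries 6 members were higher at every step from stage to stage (2.0%) and 8 were lower at every step (2.67%), against 4.4% and 9.92% of all 3024 transcripts. In the cytosolic libraries the numbers were 2 (0.667%) and 3 (1.0%), against 0.992% and 4.0%. These steps are also bounded by the rule.

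ENSDART00000024815 had the highest late/early ratio among the members. It had 608, 662, 694, 853 and 1067 CPM in the nuclear and 763, 612, 616, 960.4 and 1025 CPM in the cytosolic libraries. All 4 late values were above all 6 early ones, and the mean log2 difference of late from early was 0.57, or 1.48-fold. ENSDART00000025096 had the lowest, with 982, 934, 881, 695 and 642 CPM in the nuclear and 1142, 1149, 1134, 752 and 817 CPM in the cytosolic libraries. All 4 late values were below the early ones, with a mean log2 difference of -0.51, and cytosol was the higher fraction at every stage. The last member by ratio, ENSDART00000055767, had 329.5, 294, 295, 333 and 227 CPM in the nuclear and 371, 327, 345, 321 and 202 CPM in the cytosolic libraries. Both shield values lay below its 8 others.

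The members lay close to equal shares in both fractions by library total, with a slight lean to the cytosol before dome that all 3024 transcripts had too. The rule bounds the nuclear/cytosolic ratio of a member at each stage, so this closeness and the narrow spread follow in part from the choice. The median log2 ratio of nuclear to cytosolic CPM was -0.09 in 64-cell, -0.07 in 256-cell and -0.09 in 1000-cell embryos, -0.02 at dome and 0.01 at shield. Over all 3024 transcripts it was -0.08, -0.08, -0.09, -0.06 and 0.04 in the same order. The nuclear value was the higher one for 89, 112, 104, 138 and 154 of the 300 members, in the same order. These are 29.7%, 37.3%, 34.7%, 46.0% and 51.3%, against 36.4%, 38.8%, 38.5%, 41.5% and 52.1% of all 3024 transcripts. The spread of the log2 ratio over members (SD) was 0.19, 0.22, 0.26, 0.22 and 0.37 in order of stage. It was widest at shield, as it was for the other 2724 transcripts, with 1.009 there and 0.47 to 0.58 before.

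The direction at shield depended on the scaling. The cytosolic shield library had a TMM factor of 0.715, against 0.996 to 1.102 for the 9 other libraries. With these factors the log2 ratio at shield of every transcript shifts by -0.48, the median of the members becomes -0.47 and that of all 3024 transcripts -0.44. The nuclear value was then the higher one for 26 members, against 154 by library total. With DESeq2 size factors the shift was -0.39, and the medians were -0.38 for the members and -0.35 for all 3024 transcripts. The number of members with the nuclear value higher was then 43. Under these scalings this was counted for the members only, so 26 and 43 have no share of all transcripts beside them. At the other stages the shift was at most 0.07 in size with either scaling. The lean to the cytosol before dome was itself that small, and it shrank. With TMM factors the medians of the members were -0.03 in 64-cell, -0.03 in 256-cell and -0.05 in 1000-cell embryos. Those of all 3024 transcripts were -0.02, -0.04 and -0.05. With DESeq2 size factors the members had -0.04, -0.05 and -0.05, and all 3024 transcripts had -0.03, -0.06 and -0.05. Of the 300 members, 289 stayed within 2.5-fold after TMM scaling and 269 with DESeq2 size factors. Their ratios by library total were at most 1.84 by choice, so these numbers follow in part from the choice. The highest ratio of a member was 2.75 after TMM scaling and 2.92 with DESeq2 size factors. A list of 300 chosen anew after scaling shared 165 members with the list used here for TMM and 125 for DESeq2.

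**Figure D5:**
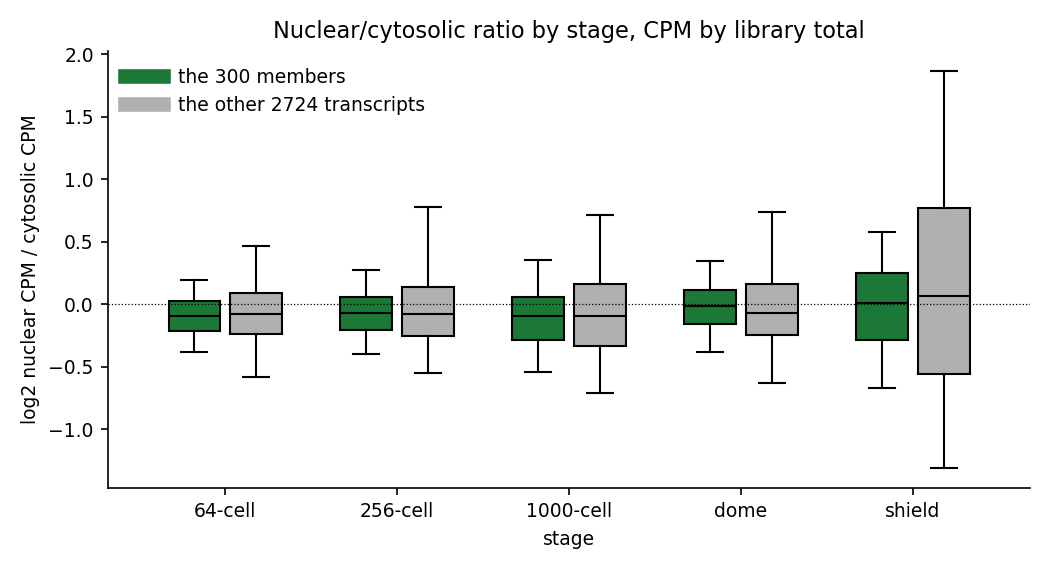
Log2 ratio of nuclear to cytosolic CPM by library total (vertical axis) at each stage (horizontal axis) for the 300 members in green and the other 2724 transcripts in grey. Boxes span the quartiles with the median and whiskers the 5th to 95th percentile, and the boxes of both sets are widest at shield, where TMM scaling would lower all values by 0.48.

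Cytosol was the higher fraction at all 5 stages for 32 members (10.7%, against 9.59% of all 3024 transcripts), and nucleus for 5 (1.67%, against 2.48%). By library total both shares were near the background. With TMM factors the numbers were 40 (13.3%, against 9.62% of all) and 1 (0.333%, against 2.25%), and with DESeq2 size factors 47 (15.7%, against 9.99%) and 2 (0.667%, against 2.22%). Without shield 62 members had cytosol higher at the 4 other stages (20.7%, against 19.6%) and 9 had nucleus higher (3.0%, against 4.66%). Without dome 51 (17.0%, against 13.1%) and 13 (4.33%, against 5.13%) did so. Without 1 of the early stages the numbers were 39 to 41 (13.0 to 13.7%, against 12.3 to 14.3%) and 10 to 11 (3.33 to 3.67%, against 3.90 to 4.50%). No member differed by 1.2-fold or more in a single direction at every stage. Such a difference was rare in general, at 0.496% of all 3024 transcripts with nucleus higher and 0.198% with cytosol higher. ENSDART00000152394 had the lowest mean log2 nuclear/cytosolic ratio, -0.37 ± 0.18 (SD, n = 5 stages). It had 131, 121, 109.8, 168 and 118 CPM in the nuclear and 157, 154, 160.0, 185 and 174 CPM in the cytosolic libraries, with cytosol higher at each stage. ENSDART00000105117 had the highest, 0.35 ± 0.18 (SD, n = 5 stages), with 46.1, 45.5, 63.6, 60.7 and 67.2 CPM in the nuclear and 40.4, 37.6, 41.1, 51.4 and 50.6 CPM in the cytosolic libraries. Its nuclear values were higher at each stage, and the difference was widest at 1000-cell, at 0.63 on the log2 scale.

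The small differences between fractions were shared by 2 neighbouring stages. Across the 300 members, the log2 nuclear/cytosolic ratios at 256-cell and 1000-cell correlated at r = 0.547 (Spearman's rho 0.549). The values for all 9 remaining pairs ran from r = -0.179 to 0.180 (median 0.0364). For the other 2724 transcripts the 256-cell and 1000-cell ratios correlated at r = 0.395 (rho 0.455). These are correlations across transcripts of the same 4 libraries, which are not independent replicates, and any bias by length or base composition that these libraries have in common would enter them. Its part was not tested.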

How the data were processed

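The authors deposited counts in a single table, by Ensembl transcript ID and library. The counting errors and Wilson intervals treat them as tallies of reads, and which tool made the counts is not given. Each column was matched to a library by the stage and fraction in its name, and 0 columns had no match. The submitters' processing notes name Trimmomatic 0.27, STAR 2.6.0a, StringTie and the genome build Zv9, without their roles. The annotation, the use of strand and how reads shared by transcripts of 1 gene, by near-identical copies or by overlapping transcripts were divided are not given in the sources used here, so values of single transcripts are uncertain in that respect. The gene tables used matched 0 of the 16383 transcript IDs, so planned lists of marker and reference genes were not used, and no sequences are shown.

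Counts were divided by the library total to give CPM. The members and the measures were chosen with earlier results of these data known. Since the rule used all 10 libraries, 0 tests were made. Named transcripts followed a fixed rule: the 3 lowest ratios, the 3 highest mean CPM, the transcripts on both sides of each limit, and the members with the highest and lowest mean log2 nuclear/cytosolic and late/early ratios. Alternatives were TMM factors (edgeR 4.0.16) and DESeq2 1.42.0 size factors, both from the 9568 transcripts that reached 10 counts in 2 or more libraries, other limits, and leaving out stages, libraries or a fraction. The code of the rule was checked on simulated counts of well-counted transcripts, either flat or strongly changed in a single library. That check does not reach transcripts near the CPM floor or ratios near the cap. No 2 libraries held identical values (0 pairs). Python 3.11.15, pandas 2.3.3, NumPy 2.4.6, SciPy 1.17.1, matplotlib 3.10.9 and R 4.3.3 were used.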

Additional observations from a re-analysis of the deposited data

Results flagged for a closer look

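ENSDART00000060971, the second most even member, had 25.2 CPM in the nuclear shield library, below the 27.8 to 28.4 CPM of the 4 other nuclear libraries, which lay close together. That value rests on 149 counts. It was the only one of 34 sets of 5 values, over stages of 1 fraction or over the 5 stages, with a value that far from the others. The members were chosen for evenness in the same values, so a chance rate of about 1 in 20 need not hold for these sets. Whether 1 among 34 is more than chance gives was not tested.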

How the results depend on the processing

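The number of transcripts within both limits (822) was 442 with a ratio limit of 2, 1510 with nuclear libraries only and 1423 with cytosolic libraries only. It ran from 835 to 2947 with 1 library or 1 stage left out, highest without shield. With the 7 other changes of scaling or limits it stayed within 1.5 times. The mean share of counts held by the members was 10.6% without the 28 transcripts among the 10 most abundant of any library, none of them a member. Members with nucleus higher at every stage (5) numbered 1 with TMM factors, 2 with DESeq2 size factors, 9 to 13 with 1 stage left out and 0 when 1.2-fold was required. Those with cytosol higher (32) numbered 39 to 62 with 1 stage left out and 0 at 1.2-fold. Members with late above early (10) numbered 29 with TMM factors, 31 with DESeq2 size factors, 14 to 51 with 1 stage left out, 65 in nuclear and 47 in cytosolic libraries only, and 1 with 1000-cell counted as late. Members with late below early (12) numbered 0, 0, 12 to 51, 34, 64 and 8 in the same order. In nuclear libraries only, 21.7% of members had late above early, against 20.5% of all transcripts with at least 10 CPM in every library. In cytosolic libraries only it was 15.7% against 16.6%, and with 1000-cell counted as late 0.333% against 1.32%. For late below early the shares were 11.3% against 31.7%, 21.3% against 34.2% and 2.67% against 3.01%, in the same order. Reading lists chosen without 1 stage under both other scalings, and the profiles of the members under them, were added after seeing the data, and the counts past 2-fold at shield (173) were 164 and 153. With fewer libraries a single direction is met more easily. The cause of the shifts with scaling at shield was not tested beyond the factors themselves. No paired test was made, since the rule used all 10 libraries. The nuclear and cytosolic libraries were paired by stage, and their ratios are given as descriptions.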
